A study of Homo sapiens with 2 samples.

Results

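The ERBB receptors and the ligands of the epidermal growth factor family were followed through an array comparison of RUNX2 knockdown cells with control cells of the SKOV3 line. The set holds 10 genes, of which 4 code for receptors (EGFR, ERBB2, ERBB3 and ERBB4) and 6 for ligands (AREG, EREG, HBEGF, TGFA, BTC and NRG1). A probe was taken for a gene when the RefSeq accession in the array's annotation belonged to that gene. This gave 18 of the 41000 probes of the array, for 10 of the 17240 genes that could be named in this way. SKOV3 is a human ovarian adenocarcinoma line known for an amplified ERBB2 locus. The knockdown clone, cl-sh3, was made by infecting SKOV3 cells with a pLKO.1-puro lentivirus that codes for a short hairpin RNA against RUNX2, a Runt-family transcription factor. The control was a mock clone infected with the same vector carrying a scramble sequence that matches no mammalian transcript. Both were selected with puromycin as stable clones. The paper describes serum-supplemented media for its cell lines and does not state the medium of each clone. Each group is 1 clone, so that differences between clones of SKOV3 and the effect of the hairpin cannot be told apart.

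Total RNA of both clones was labelled with the dyes Cy3 and Cy5 and both were put on the same Agilent array of the whole human genome. In hybridization 1 the dye of cl-sh3 was Cy5 and that of the control Cy3, and hybridization 2 was the dye swap. The 2 hybridizations were on 1 slide, and the labels do not say that separate cultures were used. They were taken to share the same RNAs and count as 1 replicate. No difference between the clones therefore has a replicate check or a p-value. On that reading, the gap between the hybridizations shows technical error alone. Log2 ratios have cl-sh3 over the control clone and are printed for hybridization 1, hybridization 2 and their mean. In RNA of a whole culture, fewer expressing cells and less RNA per cell cannot be told apart.

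The ERBB receptors are tyrosine kinases of the cell surface that signal as dimers. EGFR binds EGF, TGFA and AREG, while HBEGF, BTC and EREG bind both EGFR and ERBB4, and the neuregulins bind ERBB3 and ERBB4. ERBB2 has no known soluble ligand and acts as the preferred partner of the other receptors, and the kinase of ERBB3 is weak, so that it signals through its partners. The ligands are made as membrane-bound precursors and are released by metalloproteases, mainly of the ADAM family. In ovarian and other carcinomas the active dimers feed the RAS to MAP kinase and the PI3 kinase to AKT cascades, which drive growth and survival.

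The start regions of the genes are shown for the receptor with the largest decrease, a ligand that was higher with every probe, and the ligand whose window holds a cyclic AMP response element because the knocked-down factor is a DNA-binding protein. RefSeq promoter windows of GRCh38.p14, each 250 bases before and 50 bases from the annotated gene start, were matched for 8 of the 10 genes (10 windows), with NRG1 and ERBB3 not shown. In ERBB2 (chr17:39687844-39688143, + strand) and HBEGF (chr5:140346554-140346853, - strand) the capitals mark the 50 bases from the gene start. In AREG (chr4:74444886-74445185, + strand) the capitals mark the cyclic AMP response element TGACGTCA, which begins 65 bases before the gene start.
ERBB2: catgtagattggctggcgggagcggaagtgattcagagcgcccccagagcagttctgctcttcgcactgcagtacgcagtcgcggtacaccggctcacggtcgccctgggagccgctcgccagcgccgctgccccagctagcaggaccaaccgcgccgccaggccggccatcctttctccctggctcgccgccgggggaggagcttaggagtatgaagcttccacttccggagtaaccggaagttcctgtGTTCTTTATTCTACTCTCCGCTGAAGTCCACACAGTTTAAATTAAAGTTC
HBEGF: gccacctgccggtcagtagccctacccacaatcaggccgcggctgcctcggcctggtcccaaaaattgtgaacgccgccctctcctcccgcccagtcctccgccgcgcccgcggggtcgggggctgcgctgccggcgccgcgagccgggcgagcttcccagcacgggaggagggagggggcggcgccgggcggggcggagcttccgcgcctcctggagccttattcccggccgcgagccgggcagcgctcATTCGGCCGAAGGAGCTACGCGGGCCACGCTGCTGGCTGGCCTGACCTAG
AREG: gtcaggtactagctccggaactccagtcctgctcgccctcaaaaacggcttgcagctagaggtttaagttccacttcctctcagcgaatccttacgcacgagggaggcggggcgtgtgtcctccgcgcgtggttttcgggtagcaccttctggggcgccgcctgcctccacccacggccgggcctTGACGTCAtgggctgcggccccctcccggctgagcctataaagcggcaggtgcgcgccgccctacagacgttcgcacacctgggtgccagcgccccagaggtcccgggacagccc
The letters TGTGGT, which lie at the core of Runt-family sites, were searched on both strands (ACCACA on the other) and were found in 0 of the 10 windows. They occur in 13.1% of all 35116 RefSeq promoter windows of this length. Other starts that these genes may have were not searched, and ERBB2 was matched by a single window. The element TGACGTCA, which reads the same on both strands and does not overlap with those letters, was found in 1 of the 10 windows and in 1.85% of all windows.

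Each array had 43376 spots of gene probes. Median spot signals were 451 and 507.5 in Cy3 against 902.5 and 684 in Cy5, so raw signals of the 2 dyes are comparable only after normalization. No spot was saturated. RUNX2 itself had log2 ratios of -2.04 and -1.30 with its brightest probe, of NM_004348, and so was lower in the knockdown clone by that probe. A dimmer RUNX2 probe of that accession was at 0.17 and -0.13, and a probe of NM_001015051 was at -0.29 and -0.17. Probes were kept when at least 1 of the RNAs was well above background, by the scanner software's flag, in both hybridizations.

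None of the ERBB family probes changed by the study's rule of at least 2-fold in both hybridizations. All 18 probes were kept, 17 with both RNAs well above background in both hybridizations. At 2-fold, 0 of the 18 were higher, where 0.122% of all 36060 kept probes were, and 0 were lower, against 0.394% of all probes. At 1.5-fold, 0 were higher and 0 were lower, while 1.35% and 2.32% of all probes were. Signs were mixed, since 7 probes were higher in both hybridizations (29.8% of all probes), 8 were lower in both (27.3% of all probes) and 3 had opposite signs. The mean log2 ratios of the 18 probes ran from -0.66 for ERBB2 to 0.42 for ERBB4. The 2 hybridizations of a probe differed by a median of 0.19 here and by 0.22 over all kept probes.

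With each gene represented by its brightest kept probe, 3 of the 10 genes were higher in both hybridizations, 4 were lower in both and 3 had opposite signs. Over all 16153 genes with a kept probe, 30.9% were higher and 28.4% lower in both. The higher genes were ERBB4, HBEGF and BTC, and the lower genes were ERBB2, EREG, TGFA and NRG1 with its brightest probe. EGFR, ERBB3 and AREG changed sign with the dyes. The median mean log2 ratio was -0.14 over the 10 genes, with -0.22 in hybridization 1 and -0.03 in hybridization 2, and 0.01 over all genes. Only 3 genes passed 1.5-fold in either hybridization, namely ERBB2 and TGFA (lower, hybridization 1) and HBEGF (higher, hybridization 2).

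**Figure D1:**
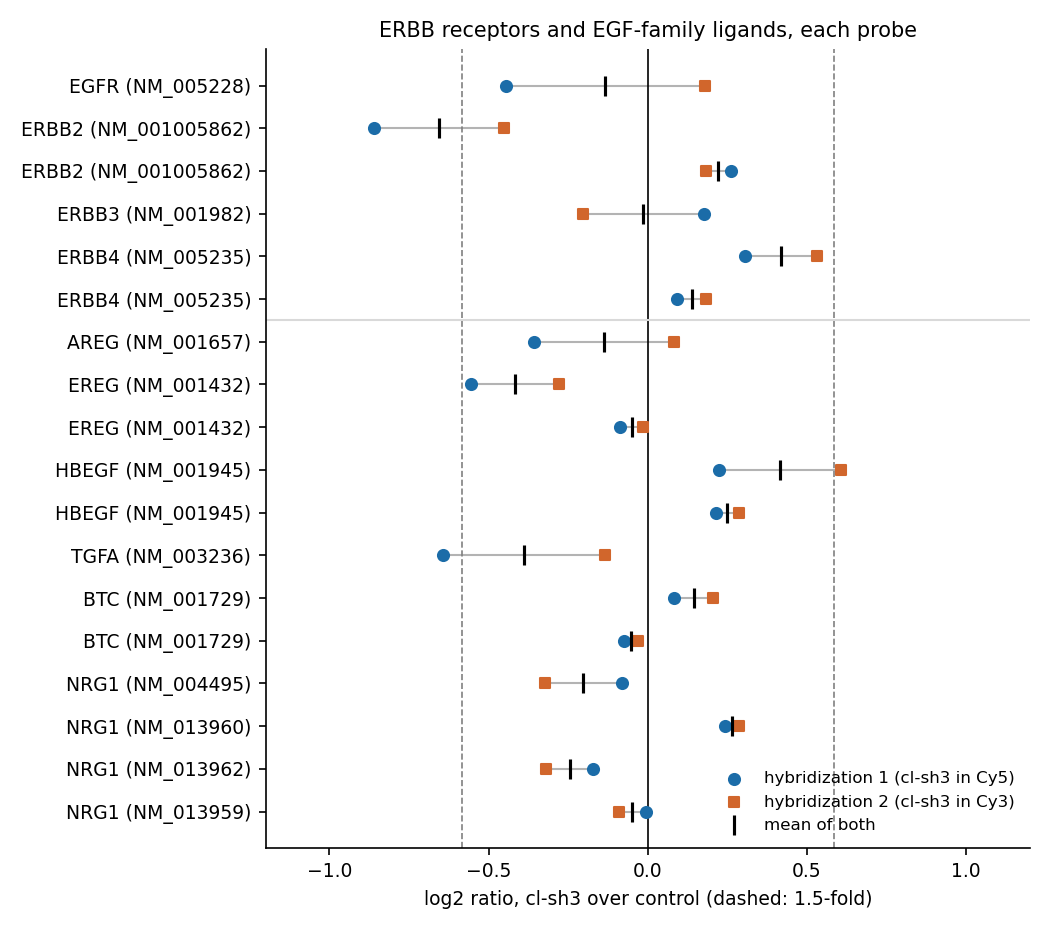
Log2 ratio of cl-sh3 over control (x axis) for each of the 18 probes of the 10 genes (y axis, receptors above the grey line and ligands below it, with the accession of each probe). Circles are hybridization 1, squares hybridization 2, bars their mean and dashed lines 1.5-fold. No probe has both points beyond the same dashed line, and the ERBB2 probes lie on opposite sides of 0.

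ERBB2, the receptor without a ligand of its own, gave the largest difference among the members. Its bright probe, A_23_P89249 (NM_001005862), is printed 10 times on each array. The raw spot signals averaged 80005 for the control and 99672 for cl-sh3 in hybridization 1, and 103806 for the control and 70064 for cl-sh3 in hybridization 2. In each hybridization the Cy5-labelled RNA gave the higher raw signal, and within each dye the raw signal of cl-sh3 was below that of the control. After normalization, the log2 signals of the control were 16.84 and 16.63 and those of cl-sh3 were 15.98 and 16.18, without overlap. The log2 ratios were -0.86 and -0.45, a mean of -0.66 or 1.57-fold lower.

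Over the 10 spots the ERBB2 ratio had an SD of 0.07 in hybridization 1, with values from -0.95 to -0.73, and an SD of 0.05 in hybridization 2, with values from -0.54 to -0.37. The gap of 0.41 between the hybridizations was thus larger than the spread between spots of either array. When the arrays were centred on their medians and no loess fit was made, the ratios were -0.43 and -0.46, with a mean of -0.44. All 10 spots were read in both dyes and both hybridizations from the scanner's low-gain pass and scaled up, as were 1550 and 1696 of the 43376 spots of the 2 arrays, and the part of this in the ratio was not tested.

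The other ERBB2 probe, A_24_P284420, of the same accession, did not show the decrease. Its log2 signals were 9.61 and 9.53 in the control and 9.87 and 9.71 in cl-sh3, which puts cl-sh3 above the control without overlap. The log2 ratios of 0.26 and 0.18 gave a mean of 0.22. The mean over both ERBB2 probes was -0.22. Which of the 2 probes follows the ERBB2 transcript better was not tested, since the array files used here give no probe sequences.

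EGFR, the receptor of EGF, TGFA and AREG, changed sign between the hybridizations. Its probe is also printed 10 times, and raw signals averaged 1065 for the control and 1542 for cl-sh3 in hybridization 1, and 1156 and 1076 in hybridization 2. The normalized log2 signals were 10.37 and 9.95 in the control and 9.93 and 10.13 in cl-sh3, which overlap. The EGFR ratio was -0.45 ± 0.13 (SD, n = 10 spots) in hybridization 1 and 0.18 ± 0.10 (SD, n = 9 spots) in hybridization 2. The lowest and highest spots were -0.57 and -0.21 in the former and 0.025 and 0.30 in the latter. The spots of the 2 arrays did not overlap, so that the disagreement belongs to the hybridizations and not to single spots, and no direction can be given for EGFR.

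**Figure D2:**
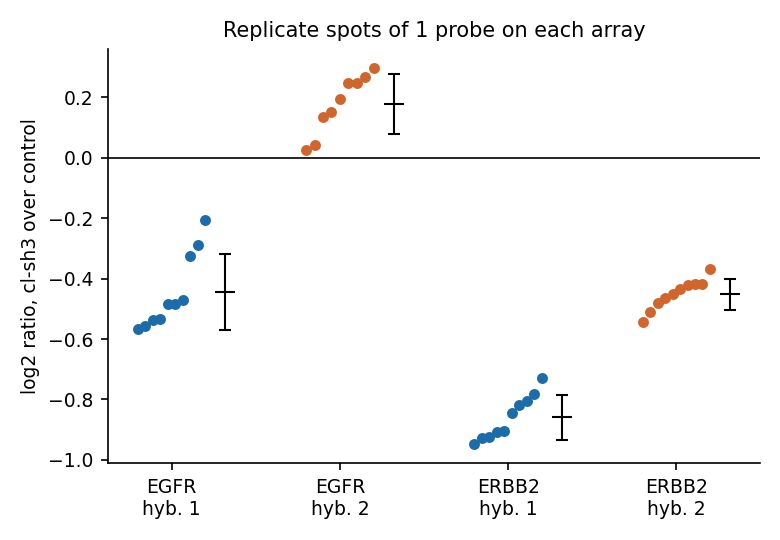
Log2 ratio of cl-sh3 over control (y axis) at each replicate spot of the EGFR probe and of the bright ERBB2 probe, in both hybridizations (x axis), with the mean and SD over spots as bars beside the points. The ERBB2 spots lie below 0 on both arrays, between -0.95 and -0.37, while the EGFR spots lie below 0 on the one array and above it on the other.

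ERBB3, the receptor that takes neuregulins and signals through its partners, had log2 signals of 9.60 and 9.66 in the control and 9.78 and 9.45 in cl-sh3. The clones overlapped and the log2 ratios of 0.18 and -0.21 gave a mean of -0.01. ERBB4, the other neuregulin receptor, was higher in cl-sh3 with both of its probes. The brighter one had raw signals of 944 and 1418 in the control and 2196 and 1792 in cl-sh3. These were higher in cl-sh3 with either dye, but so were the median raw spot signals of the arrays. The normalized signals did not overlap, and the ERBB4 ratios were 0.31 and 0.53, with a mean of 0.42 or 1.34-fold. The dimmer ERBB4 probe was at 0.09 and 0.18, and its control signal was well above background in hybridization 1 alone.

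**Figure D3:**
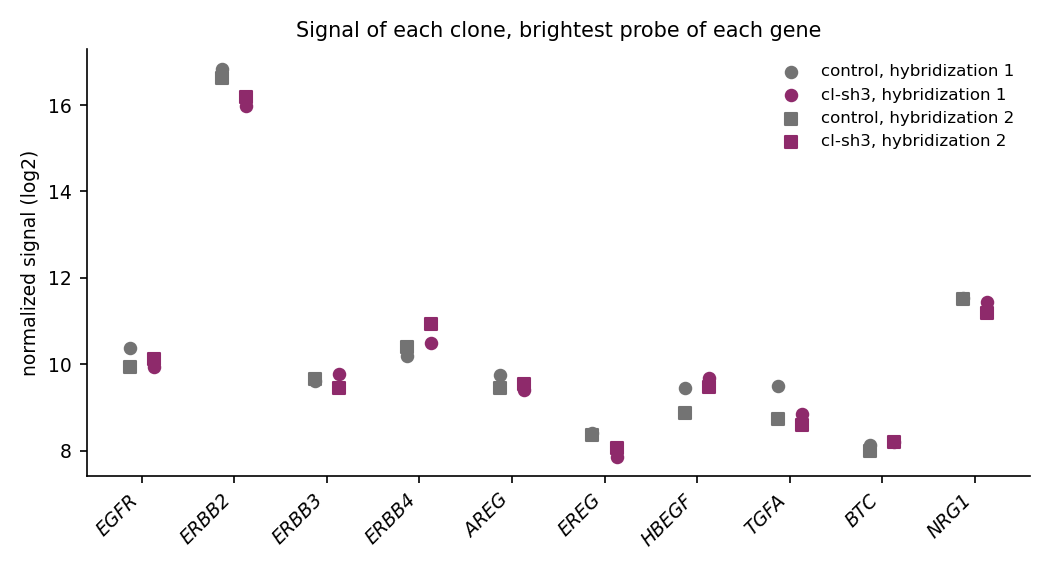
Normalized log2 signal (y axis) of the control (grey) and cl-sh3 (purple) for the brightest probe of each gene (x axis), with circles for hybridization 1 and squares for hybridization 2. The clones do not overlap for ERBB2, ERBB4, EREG, HBEGF, BTC and NRG1, and they overlap for EGFR, ERBB3, AREG and TGFA. Probes bind with different strength, so heights can be compared within a gene only.

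Genes beside ERBB2 at 17q12, which are often amplified with it, did not share the decrease of its bright probe. Of the 14 neighbours listed, 13 had a kept probe (all but ZPBP2), with 0 of them at 1.5-fold in both hybridizations, in either direction, and a median of 0.05. All 13 had a mean ratio above that of ERBB2, between -0.28 for PNMT and 0.32 for PPP1R1B, and 12 were above it in each hybridization. Those nearest to ERBB2 were PGAP3 (-0.16 and 0.25), MIEN1 (-0.06 and 0.14) and GRB7 (0.25 and 0.16), the last an adaptor protein that binds ERBB2. The other means were 0.23 for MED1, 0.26 for CDK12, -0.08 for NEUROD2, 0.20 for STARD3, 0.06 for TCAP, 0.00 for IKZF3, -0.23 for GSDMB and -0.22 for ORMDL3. ORMDL3, at 0.07 and -0.51, was the neighbour below ERBB2 in hybridization 2. In both hybridizations 5 neighbours were higher and 2 were lower, and 6 had opposite signs. The arrays measure RNA, and the copy number of the locus in the 2 clones was not tested.

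**Figure D4:**
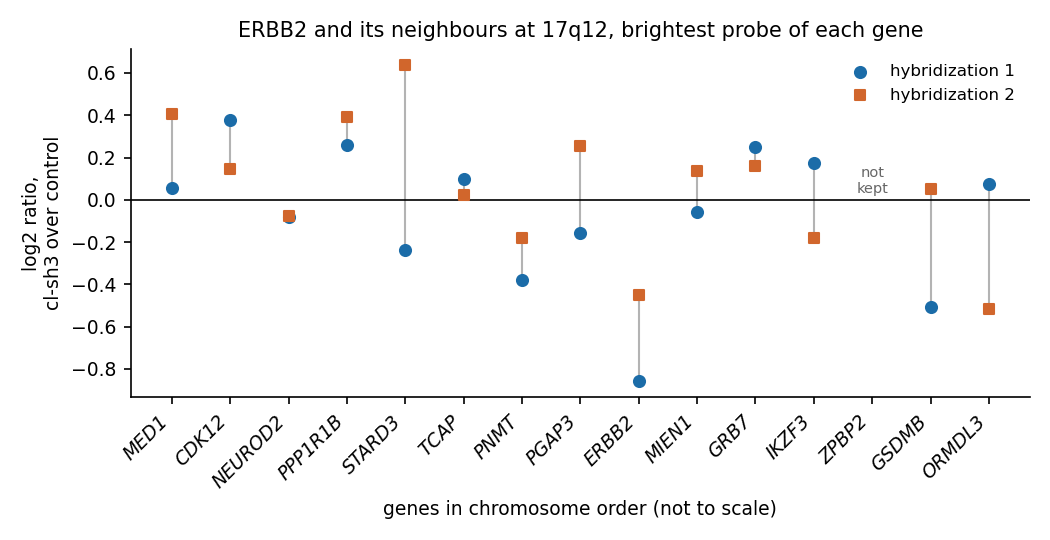
Log2 ratio of cl-sh3 over control (y axis) for the brightest probe of ERBB2 and of its neighbours in chromosome order (x axis, not to scale), with circles for hybridization 1 and squares for hybridization 2. The 13 measured neighbours have means from -0.28 to 0.32, and ERBB2 has the lowest mean, -0.66.

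Of the ligands that bind both EGFR and ERBB4, HBEGF was higher and EREG lower in cl-sh3. The brighter HBEGF probe, A_24_P140608, had log2 signals of 9.45 and 8.87 in the control and 9.68 and 9.48 in cl-sh3. The clones did not overlap, although the higher control value was close to the lower cl-sh3 value, and the ratios were 0.22 and 0.61, with a mean of 0.42 or 1.33-fold. The other HBEGF probe had ratios of 0.22 and 0.28, so both probes were higher in both hybridizations. EREG, coding for epiregulin, had log2 signals of 8.42 and 8.35 in the control and 7.86 and 8.07 in cl-sh3 with its brighter probe. Its ratios of -0.55 and -0.28, a mean of -0.42 or 1.34-fold lower, stood beside -0.09 and -0.02 with the dimmer probe. When the ratios that the scanner software itself computes were used, the brighter EREG probe was at -0.66 and -0.71 and passed 1.5-fold in both hybridizations. Raw signals of that probe were between 248 and 465.5 in all channels, close to those of the red-cell marker HBB.

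BTC, coding for betacellulin, had ratios of 0.08 and 0.21 with its brighter probe and of -0.07 and -0.03 with the other, so its probes went opposite ways. Raw signals of both BTC probes were between 184 and 564 in all channels. TGFA, a ligand of EGFR that many carcinomas make, had log2 signals of 9.49 and 8.74 in the control and 8.85 and 8.60 in cl-sh3. These overlapped, and the TGFA ratios were -0.64 and -0.13, with a gap of 0.51 between the hybridizations against a mean of -0.39. Without background correction the TGFA ratios were -0.60 and 0.01, of opposite sign. AREG, coding for amphiregulin, had log2 signals of 9.75 and 9.46 in the control and 9.39 and 9.54 in cl-sh3. Its ratios of -0.36 and 0.08 had no common direction. With the scanner software's own ratios AREG was at -0.21 and -0.09, lower in both hybridizations.

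NRG1, the neuregulin gene, makes many transcripts that differ in their ends, and its 4 probes carry 4 accessions. The probes did not move together. The brightest, for the HRG-gamma form (NM_004495), had log2 signals of 11.52 and 11.51 in the control and 11.44 and 11.19 in cl-sh3, with ratios of -0.08 and -0.32. The probe of NM_013960 had 11.03 and 10.97 in the control and 11.28 and 11.25 in cl-sh3, with NRG1 ratios of 0.24 and 0.29. That of NM_013962, the GGF2 form, was lower in cl-sh3, with 10.70 and 10.76 against 10.53 and 10.44 and ratios of -0.17 and -0.32. In each of these 3 probes the clones did not overlap. The dimmest, for the SMDF form (NM_013959), was at -0.01 and -0.09, with overlapping signals. Whether the probes are specific to these forms was not tested.

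Counts of pathway genes past the fold limits are set beside the shares over all genes. Among all genes by their brightest probe, 0.136% were higher and 0.52% lower at 2-fold in both hybridizations, and 1.6% were higher and 2.61% lower at 1.5-fold. Over the 95 kept genes of the 5 pathway lists, each counted once, 0 were higher and 1 was lower at 2-fold, and 1 was higher and 4 were lower at 1.5-fold. Their median log2 ratio was 0.00, with 30 genes higher in both hybridizations, 29 lower in both and 36 of opposite sign. The 5 genes past 1.5-fold were ERRFI1, RNF41, MAP2K1 and SHC2 (lower) and AKT2 (higher).

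The list of receptor brakes and trafficking had 23 of 24 genes kept (all but CBLC), of which 3 were higher and 9 lower in both hybridizations, with a median of -0.11. ERRFI1, coding for MIG6, a feedback inhibitor that binds the kinase of EGFR and ERBB2, was the single gene of any pathway list past 2-fold with its brightest probe. The raw signals of its brightest probe were 21166 and 19495 in the control against 9334 and 6173 in cl-sh3. The ERRFI1 ratios were -2.07 and -1.61, a mean of -1.84, and a far dimmer probe was at -0.89 and -0.36. RNF41, a ubiquitin ligase known as NRDP1 that targets ERBB3, had ratios of -0.86 and -0.61, and its other probe had -1.06 and -0.75. Both genes therefore had 2 probes that were lower in both hybridizations.

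Among 43 adaptors and proximal effectors, all kept, 16 were higher and 16 lower in both hybridizations, with a median of 0.01. AKT2, a kinase downstream of PI3 kinase, was higher with all 3 of its probes. The brightest AKT2 probe had ratios of 1.01 and 0.79, the next 0.84 and 1.05, and the dimmest 0.37 and 0.36. MAP2K1, coding for the MAP kinase kinase MEK1, was lower at -0.83 and -0.63, and SHC2, an adaptor that docks on activated receptors, was lower at -0.63 and -0.60. JAK1, a cytoplasmic tyrosine kinase named here after its values were seen, had probes that disagreed. Its brightest probe was at -0.41 and 0.12, while the JAK1 probe A_24_P410678 was at 1.27 and 1.30 and was past 2-fold higher in both hybridizations. SHC2 fell just past the 1.5-fold limit of 0.58 on the log2 scale. With median centring its mean was -0.56, which is short of that limit.

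The 13 genes of ligand release, which are ADAM proteases, rhomboid proteins, TIMP inhibitors and MMP7, were all kept. At 1.5-fold 0 of them were higher and 0 lower, 7 were higher and 1 lower in both hybridizations, and the median was 0.07. Of the 5 further ligands of the family 4 were kept, and NRG3 was not matched to a probe. The mean log2 ratios were -0.02 for EGF, -0.04 for EPGN, -0.02 for NRG2 and 0.01 for NRG4, and EPGN was lower in both hybridizations, at -0.01 and -0.07, while the other 3 had opposite signs.

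**Figure D5:**
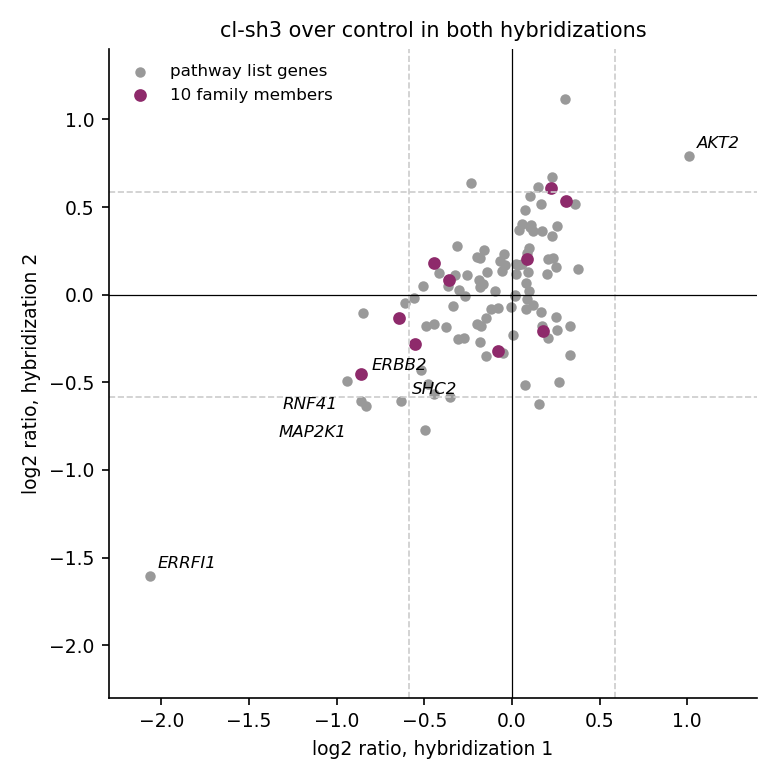
Log2 ratio of cl-sh3 over control in hybridization 1 (x axis) and hybridization 2 (y axis) for the 10 family members (purple) and the 95 genes of the pathway lists (grey), each by its brightest probe, with dashed lines at 1.5-fold. The named genes ERRFI1, RNF41, MAP2K1 and SHC2 lie past the limit in the lower left and AKT2 in the upper right, and no family member lies in either corner.

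Cell type markers were read on the same arrays. By their brightest probes, all 7 epithelial markers were higher in cl-sh3 in both hybridizations, with means from 0.34 to 0.83 and a median of 0.49, and 0 of them were at least 1.5-fold higher in both. Of the dimmer probes, 2 of KRT18 passed 1.5-fold, at 0.60 and 0.67 and at 0.60 and 0.74. Over the brightest probes of the 7 markers, the summed raw signal in Cy3 was 85214 in the control and 159228 in cl-sh3. In Cy5 the sums were 111655 in the control and 245288 in cl-sh3. Raw signals differ between dyes and arrays, so these sums do not give the size of the difference between the clones. The part of the higher epithelial marker ratios in the ERBB family values was not tested. The ovarian carcinoma markers PAX8, WT1, MUC16 and MSLN, 4 of 4 kept, had a median of -0.01. Of these, 2 were higher in both hybridizations and 2 had opposite signs, with means from -0.07 to 0.03. Raw signals of WT1, MUC16 and MSLN were between 144 and 480. Of the leukocyte markers 4 of 4 and of the endothelial markers 2 of 2 were kept, with summed raw signals of 2563 to 5488 and of 361 to 828 per RNA and hybridization. PTPRC, which epithelial lines lack, had raw signals from 170 to 424 and ratios of 0.04 and -0.08. HBB, a marker of red cells, had raw signals from 240 to 530 and ratios of -0.05 and 0.02. The flag for a signal well above background thus does not by itself show that a gene is expressed. The dimmer probes of EREG, BTC, ERBB4 and NRG1, with raw signals from 163 to 488, are read with that limit. So are the brighter probes of EREG, from 248 to 465.5, and of BTC, from 238 to 564.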

How the data were processed

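The authors scanned 2 dye-swapped 2-colour arrays and deposited the intensity of each spot, its local background and flags, read with Feature Extraction 10.5.1.1 per the file headers (the submitters' processing notes name 8.5.1.1), and a log10 ratio of the dyes (Cy5 over Cy3) by the same software. A deposited table repeats these log10 ratios to within 0.00245 and 0.00500. The array annotation is on hg18, and probes were named by accession through a RefSeq table of GRCh38.p14. In all, 18024 of the 19228 RefSeq accessions were named. An older RUNX2 accession was absent from the RefSeq table and was named from the study's own list of changed genes.

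With limma 3.58.1 (R 4.3.3), median pixel intensities were background-corrected by normexp with an offset of 50. Control spots and those with outlier flags (153 and 144) were left out, loess was fitted within each array, the mean over a probe's spots was taken, and the sign of the dye swap was turned. Signals of each RNA were taken after Aquantile scaling between the arrays. An RNA was well above background where at least 50% of a probe's spots had the flag. The median signal of negative control spots was 73 and 75 in Cy3 and 232.5 and 233.5 in Cy5. The number of arrays limits the precision. A gene was called at 2-fold, the study's rule, or at 1.5-fold where both hybridizations passed in 1 direction. With 1 replicate no test was made. The steps were tested on simulated data in which only brighter probes were changed, so dim probes were not covered. Figures and summaries used Python 3.11.15, numpy 2.4.6, pandas 2.3.3 and matplotlib 3.10.9.

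The members and lists were chosen with earlier results of these data known. Named are all members, RUNX2, every list gene past 1.5-fold, the further ligands, the 17q12 neighbours and, in groups, the markers. JAK1 is named outside this rule. The alternatives were normexp with offset 0, no background correction, the deposited table, the ratios of the scanner software, median centring, Aquantile, flagged spots kept, no filter, a filter on both RNAs, each hybridization alone, the mean of both, and a gene's value as the mean over its probes. No probe sequences were used here.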

Additional observations from a re-analysis of the deposited data

How the results depend on the processing

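Of the 10 members, 7 kept the sign of their mean log2 ratio under all 12 alternatives. These 7 had 1 sign in both hybridizations, so neither hybridization alone could turn them. Aquantile left the ratios unchanged and the deposited table repeats the software's ratios, so the 12 are not separate checks. EGFR and AREG turned under 1 each (hybridization 2 alone) and ERBB3, at -0.01, under 4. ERBB2 ranged from -0.86 to -0.22, EREG from -0.69 to -0.23, HBEGF from 0.22 to 0.61 and ERBB4 from 0.28 to 0.53. Member probes at least 1.5-fold lower numbered 1 with the scanner software's log ratios and 1 with the deposited table (EREG), and 1 by the mean of both hybridizations (ERBB2). Over all kept probes, the software's log ratios gave 103 at least 2-fold higher, 253 lower and 819 at least 1.5-fold higher. The deposited table gave 103, 251 and 811, and the mean of both hybridizations 93, 250 and 816, with 1514 at least 1.5-fold lower. Median centring gave 77 at least 2-fold higher, and a median of 0.050 over the pathway genes. By the mean of both hybridizations 2 pathway genes were at least 1.5-fold higher. With a gene's value as the mean over its probes 0 were at least 2-fold lower, where ERRFI1 had a mean of -1.23.

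With each hybridization alone, the member probes at least 1.5-fold higher numbered 0 to 1 and those lower 0 to 2, and at 2-fold 0 in either direction. Pathway genes numbered 1 to 5 higher and 6 to 7 lower at 1.5-fold, and 1 higher and 1 lower at 2-fold. All kept probes numbered 857 to 1555 higher and 1205 to 2593 lower at 1.5-fold, and 88 to 219 higher and 196 to 506 lower at 2-fold. The median over member genes was -0.22 to -0.03. No paired analysis was possible because the 2 hybridizations were taken as 1 replicate of 1 pair of RNAs and no test was made. Probes near background have ratios drawn towards 0 by the offset, so small changes of dim members could not be detected.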
